A study of Mus musculus with 6 samples.

Results

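Gain-only runs are stretches of the genome in which differentially methylated regions (DMRs) lay close together and every DMR gained methylation from infant to young adult lung endothelial cells (EC). To find them, the listed DMRs were sorted by position, neighbours were joined into a run where the next DMR started at most 10 kb after the end of the last, and runs of 6 or more DMRs on chromosomes 1 to 19 were kept if the young adult mean was above the infant mean in each. The rule left 244 of the 18333 listed DMRs, in 32 runs. The background has to be kept beside this count, because 54.1% of all listed DMRs and 53.7% of the 18168 autosomal ones gained methylation. The members made up 2.50% of the 9754 autosomal gain DMRs. Members were thus selected on the 2 group means that also define a DMR, and methylation levels and differences are given below as a description, with no test.

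The methylomes came from T-WGBS, bisulfite sequencing of the whole genome after tagmentation, in which a transposase fragments the DNA. Bisulfite converts unmethylated cytosines, and calls that stay unconverted at a CpG are counted as methylated. EC were sorted from lungs of female C57BL/6N mice, 3 samples from infants of 8 to 10 days and 3 from young adults of 8 to 12 weeks, and no transgene, deletion or treatment is named for either group. The sort took CD31+ CD34+ cells that were negative for PTPRC, LYVE1, LY76 and PDPN, markers that include those of leukocytes, lymphatic EC and erythroid cells. The deposited list gives only the mean of each group for each DMR, so no difference could be set against the spread between mice, and the identity of the cells could not be checked against marker genes.

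Methylation of CpGs is laid down by the de novo DNA methyltransferases, copied at cell division by the maintenance enzyme, and removed actively by TET enzymes or passively by dilution. CpG islands, stretches rich in CpGs that often lie at promoters of housekeeping and developmental genes, are mostly unmethylated in normal tissues, whereas most other CpGs are methylated and lose methylation locally at active enhancers. A gain of methylation can therefore start from an unmethylated island or from a partly methylated element within or between genes, and both kinds of start were seen among the members. Some members outside islands, such as those at *Cd93*, also had low infant levels.

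To show how different these elements are in sequence, reference sequences (GRCm38, plus strand, from RefSeq) of 8 members are given here. They were taken from the 6 largest runs, as the member with the most CpGs among those touching no exon, together with the members with the largest difference and with the lowest infant mean. CpGs are in capitals. A DMR begins and ends at a CpG, and where it was longer than 300 bases, 300 are shown.
*Hspg2* DMR with the largest difference, chr4:137470562-137470676: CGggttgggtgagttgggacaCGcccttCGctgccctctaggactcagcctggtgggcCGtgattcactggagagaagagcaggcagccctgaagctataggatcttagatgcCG
*Hspg2* DMR with the most CpGs (middle part), chr4:137471285-137471584: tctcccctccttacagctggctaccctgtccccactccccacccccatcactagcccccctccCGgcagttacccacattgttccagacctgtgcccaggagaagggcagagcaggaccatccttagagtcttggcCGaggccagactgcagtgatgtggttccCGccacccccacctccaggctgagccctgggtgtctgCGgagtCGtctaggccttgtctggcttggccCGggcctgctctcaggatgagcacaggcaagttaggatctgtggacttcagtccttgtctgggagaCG
*Gm12610* DMR at *Cdkn2b* (first part), chr4:89303801-89304100: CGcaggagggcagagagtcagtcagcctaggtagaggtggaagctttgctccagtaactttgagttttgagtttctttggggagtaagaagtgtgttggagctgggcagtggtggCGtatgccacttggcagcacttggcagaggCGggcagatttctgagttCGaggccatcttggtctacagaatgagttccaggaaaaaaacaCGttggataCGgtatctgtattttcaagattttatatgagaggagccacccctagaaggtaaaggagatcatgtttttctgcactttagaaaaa
*Fli1* DMR with the lowest infant mean, chr9:32525779-32525858: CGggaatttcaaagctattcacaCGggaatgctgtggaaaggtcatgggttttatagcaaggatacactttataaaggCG
*Fli1* DMR with the most CpGs, chr9:32503868-32504027: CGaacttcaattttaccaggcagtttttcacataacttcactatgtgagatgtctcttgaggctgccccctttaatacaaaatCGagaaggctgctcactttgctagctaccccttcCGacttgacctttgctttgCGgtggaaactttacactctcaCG
*Nrp2* DMR with the most CpGs, chr1:62720920-62721171: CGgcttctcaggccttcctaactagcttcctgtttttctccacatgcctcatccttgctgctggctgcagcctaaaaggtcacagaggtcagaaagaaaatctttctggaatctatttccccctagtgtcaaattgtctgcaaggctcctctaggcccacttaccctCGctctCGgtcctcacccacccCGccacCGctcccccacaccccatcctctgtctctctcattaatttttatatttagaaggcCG
intergenic DMR nearest to *Prdm11*, chr2:93099284-93099563: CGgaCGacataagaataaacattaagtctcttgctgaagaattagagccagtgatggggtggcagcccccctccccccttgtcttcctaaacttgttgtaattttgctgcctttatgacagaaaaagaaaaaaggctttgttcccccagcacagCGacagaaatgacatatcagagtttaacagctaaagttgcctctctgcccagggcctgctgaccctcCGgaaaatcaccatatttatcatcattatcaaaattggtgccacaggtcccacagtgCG
*Nbea* DMR upstream of *Mab21l1*, chr3:55780106-55780128: CGgactaCGggtagCGggtagCG

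The *Nbea* DMR packed 4 CpGs into 23 bp, whereas the intergenic DMR nearest to *Prdm11* spread 5 CpGs over 280 bp. The *Nbea* DMR rose from 60.6% to 86.4% (infant to young adult), and the DMR nearest to *Prdm11* from 61.7% to 90.2%. Other members of these runs outside exons tied with them in CpGs, in 35, 74 and 159 bp at *Nbea* and in 190 bp near *Prdm11*.

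The 32 runs lay on 15 chromosomes, and chromosomes 13, 15, 16 and 18 held none. Most were small. Of the runs, 15 had 6 DMRs, 4 had 7, 7 had 8 and 3 had 9, and the remaining ones had 10 (*Fli1*), 12 (*Cdkn2a* and *Cdkn2b*) and 21 (*Hspg2*). They spanned 509 to 53154 bp, with a median of 15867 bp, and held 1075 CpGs inside DMRs. These were 12.4% of the 8687 CpGs of the reference within the spans. The rest of the CpGs there were not listed as part of a DMR, and whether they changed is not known from the list. DMRs were called without smoothing, so a stretch of changed CpGs can be listed in pieces. Joining members at most 500 bp apart left 161 pieces, and 11 runs still had 6 or more. In 6 runs only 1 or 2 pieces were left, among them those at *Kcnh6*, *Ppp4r1l-ps* and *Hhex*.

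Gain-only runs were rarer and smaller than runs made only of losses. Of the 256 autosomal runs of 6 or more DMRs, 188 held only losses, with 2394 DMRs, a median size of 10 DMRs and a largest run of 64. The median size of gain-only runs was 7. A further 36 runs were mixed. Among runs of 2 DMRs the order was the opposite, with 709 gain-only and 581 loss-only runs. At 3 DMRs, 191 were gain-only and 246 loss-only, and at 5 DMRs 33 and 70.

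Members started low and ended at an intermediate level. At the median member, the infant mean was 30.4% and the young adult mean 61.4%, with a median difference of 28.7 percentage points (range 10.3 to 52.7). The other 9510 autosomal gain DMRs had medians of 55.9% and 78.6% and a median difference of 20.2 percentage points. A difference of 20 percentage points or more was listed for 84.4% of the members and for 51.3% of the other gain DMRs. An infant mean below 20% was found in 66 members (27.0%) and in 13.6% of the other gain DMRs. Only 47 members (19.3%) had a young adult mean above 80%, compared with 47.4% of the other gain DMRs. These levels were not particular to gain-only runs. The 142 gain DMRs in mixed runs of 6 or more, which are counted among the other gain DMRs, had medians of 30.1% and 61.8% and a median difference of 27.7 percentage points, with 37.3% below 20% in infant and 18.3% above 80% in young adult EC. By starting level, the median difference was 29.5 percentage points for the 66 members below 20%, 30.1 for the 146 members from 20% to 60% and 18.96 for the 32 members at 60% or more.

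**Figure D1:**
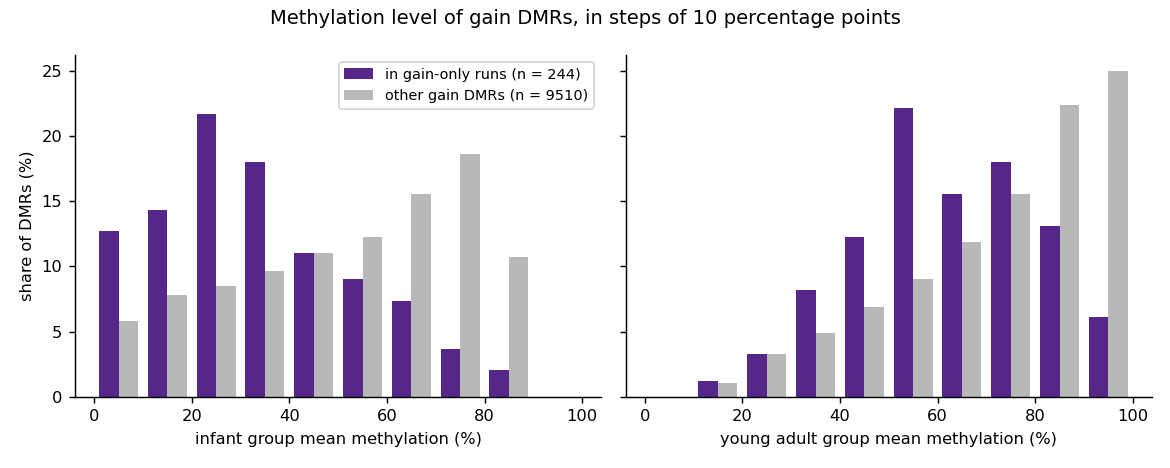
Share of DMRs (vertical axis, %) by infant (left) and young adult (right) group mean methylation, in steps of 10 percentage points, for the 244 members and the 9510 other autosomal gain DMRs. Most members lie at the left of the infant panel, where 21.7% have an infant mean of 20 to 30%, whereas 25% of the other gain DMRs lie between 90 and 100% in young adult EC and 6.15% of the members do.

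Levels varied widely within a run. Pooled over the runs, the SD among the DMRs of a run was 18.6 percentage points for infant methylation, 17.5 for young adult methylation and 7.37 for the difference. In 15 runs the infant means of the DMRs spread over more than 50 percentage points. At *Arhgap28* (the run of 8) they reached from 2.60% to 76.0%, and at *Nrp2* from 20.9% to 78.6%. In 8 runs every difference exceeded 20 percentage points.

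**Figure D2:**
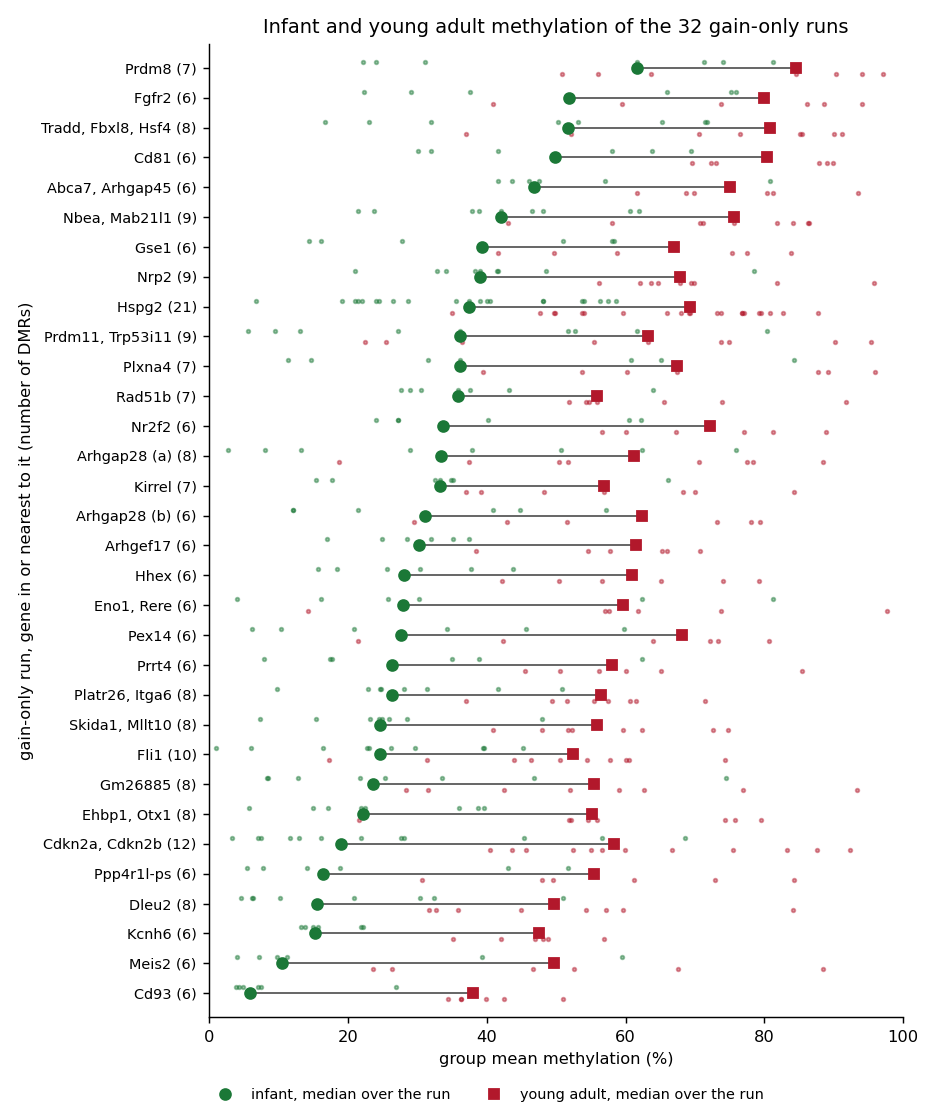
Group mean methylation (horizontal axis, %) of the 32 gain-only runs, each labelled with the gene it lies in or next to and its number of DMRs (large symbols, medians over a run; small dots, single DMRs; *Arhgap28* has 2 runs, a and b). The runs are ordered by their infant median, from 5.90% at *Cd93* to 61.7% at *Prdm8*, and the young adult median lies to the right in each, as the rule requires.

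The largest run lay at *Hspg2*, which encodes perlecan, a heparan sulfate proteoglycan of basement membranes. It held 21 DMRs with 89 CpGs over 37943 bp (chr4:137461155-137499097). Of these DMRs, 18 lay in intron 1 and 3 upstream of the gene, and the gene body held 19 gain DMRs and 0 loss DMRs. The infant means ranged from 6.69% to 58.6% (median 37.4%) and the young adult means from 34.9% to 87.8% (median 69.3%). The DMR with the largest difference of all members was among them, 1816 bp downstream of the transcription start site (TSS). In its 115 bp and 5 CpGs, shown above, methylation rose from 24.5% to 77.1%, by 52.7 percentage points. Its neighbour with 11 CpGs rose from 21.4% to 54.1%. The lowest levels were at a DMR of 4 CpGs at 9370 bp from the TSS, which went from 6.69% to 34.9%. The nearest listed DMRs beyond the run, 11298 bp upstream and 10493 bp downstream, were also gains and fell just outside the 10 kb that joins a run.

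The cell cycle inhibitor locus on chromosome 4 had the second largest number of DMRs and the largest median difference of the runs, 38.0 percentage points. *Cdkn2a* encodes p16INK4a and p19ARF, *Cdkn2b* encodes p15INK4b, and both p16 and p15 inhibit the cyclin D-dependent kinases. The run held 12 DMRs with 80 CpGs (chr4:89291247-89307267). Of these, 4 lay in intron 1 of the longest *Cdkn2a* transcript and 8 in the body of *Gm12610*, a long non-coding RNA gene that starts beside *Cdkn2a*. *Gm12610* runs across *Cdkn2b* on the opposite strand, and 2 of its 8 DMRs lay in exonic sequence of *Cdkn2b*. The 4 DMRs in *Cdkn2a* were more methylated in infant EC with each step towards the start of that transcript, from 7.37% at 3364 bp to 45.4% at 1082 bp. They reached 43.6% to 83.3% in young adult EC. This start is at the end of the gene that faces *Gm12610*, and the start sites of p16INK4a and p19ARF were not told apart. The largest difference in *Cdkn2a* was 47.4 percentage points, from 28.1% to 75.5%. In *Cdkn2b*, a DMR of 24 CpGs, the most of any member, rose from 11.6% to 56.6% (chr4:89306437-89307213), and the DMR of 3 CpGs next to it from 7.01% to 55.1%. In *Gm12610*, a DMR that was nearly unmethylated in infant EC rose from 3.28% to 40.5%, and 99.5% of the 200 bp around its midpoint was masked as repeats. The adjacent DMR of 13 CpGs, whose first part is printed above, rose from 16.1% to 45.6%. The nearest loss DMR lay 143214 bp away, within *Gm12610*, whose body held 11 gain and 2 loss DMRs.

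At *Fli1*, which encodes an ETS family transcription factor expressed in endothelial and blood cells, 10 DMRs with 35 CpGs lay in intron 1 over 30352 bp (chr9:32501064-32531415), and the gene body also held 1 loss DMR. The infant means ranged from 0.941% to 45.3% (median 24.6%) and the young adult means from 17.2% to 74.4% (median 52.4%). The DMR with the lowest infant mean of all members was here, with 3 CpGs in 80 bp, and it rose from 0.941% to 17.2%. The DMR with the most CpGs, 5 in 160 bp, rose from 5.99% to 31.4%. A separate gain-only run of 5 DMRs (chr9:32543894-32550686), too short for the rule, began 12480 bp beyond this one, upstream of the *Fli1* start site. It went from a median of 31.0% to 63.9%.

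*Nrp2* encodes neuropilin 2, a co-receptor for class 3 semaphorins and for VEGF-C. Its 9 DMRs lay in introns 1 and 2 (chr1:62704855-62732628). The infant means of 8 of them ranged from 20.9% to 48.5% and the ninth was at 78.6%, whereas in young adult EC all 9 lay between 56.2% and 95.9%. The median difference was 30.5 percentage points. The gene body held 9 gain DMRs and 0 loss DMRs, but a loss DMR (27.9 percentage points lower in young adult EC) was listed 83164 bp upstream of the run.

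**Figure D3:**
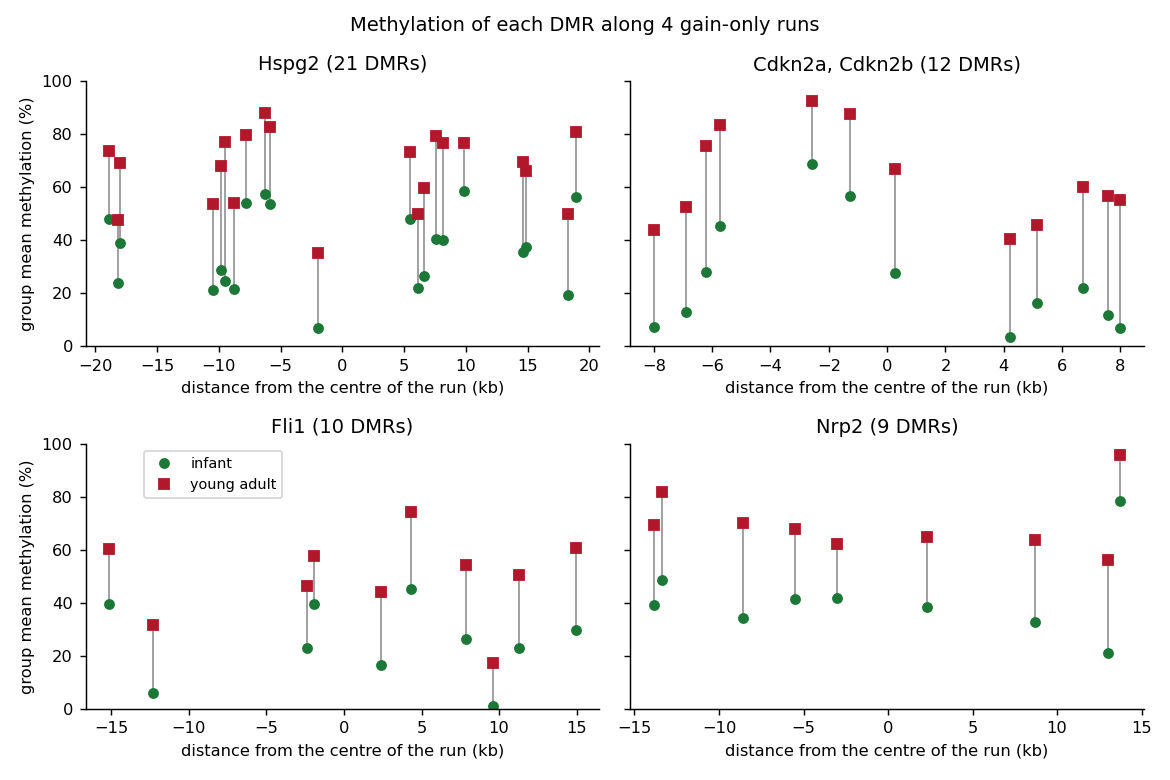
Group mean methylation (vertical axis, %) of each DMR against its distance from the centre of the run (horizontal axis, kb) at *Hspg2*, *Cdkn2a* and *Cdkn2b*, *Fli1* and *Nrp2*, with infant and young adult means of a DMR joined by a line. The infant means differ from DMR to DMR along each run, from 3.28% to 68.6% at *Cdkn2a* and *Cdkn2b*, and the young adult mean is the higher in each pair.

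Outside genes, 9 DMRs between *Prdm11*, a PR domain family gene, and *Trp53i11* formed the run with the longest span (chr2:93099284-93152437, 53154 bp). They lay 35204 to 68501 bp from the nearest start site. The infant means reached from 5.53% to 80.4% and the young adult means from 22.5% to 95.4%, with a median difference of 23.3 percentage points. A further run, with 7 of 8 DMRs intergenic, stretched from an intron of *Platr26*, a long non-coding RNA gene, towards *Itga6*, which encodes the alpha 6 chain of laminin-binding integrins (chr2:71730587-71759391). Its medians were 26.4% and 56.5%. The DMR nearest to *Itga6*, 27798 bp upstream of the start site, rose from 50.8% to 71.4%.

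Other runs lay at or beside genes of nuclear factors. At *Skida1* and *Mllt10*, which encodes a cofactor of the histone methyltransferase DOT1L, 8 DMRs (chr2:18039696-18055602) had medians of 24.7% and 55.9%. The 17 CpGs of the DMR in the *Skida1* promoter rose from 15.3% to 62.4%, and the DMR next to it, 1283 bp upstream of the start site, from 26.0% to 74.8%. Their differences, 47.1 and 48.9 percentage points, were both among the 5 largest of the members. In the long non-coding gene *G630016G05Rik*, next to the start of the homeobox gene *Meis2*, 6 DMRs (chr2:116068643-116073937) had a median infant mean of 10.4% and a median young adult mean of 49.6%. At *Nr2f2*, which encodes COUP-TFII, a regulator of venous EC identity, 6 DMRs (chr7:70349353-70358229) went from a median of 33.7% to 72.2%, and the DMR of 14 CpGs in an exon from 40.1% to 77.1%. At *Prdm8*, 7 DMRs (chr5:98169804-98190272) went from 61.7% to 84.6%, the highest infant median of the runs. At *Hhex*, a homeobox gene of early endothelial and haematopoietic development, 6 DMRs (chr19:37433055-37437545) went from 28.0% to 60.9%. The introns and exon of *Ehbp1* next to *Otx1*, a homeobox gene, held 5 of the 8 DMRs of a run (chr11:22004680-22008765) with the second largest median difference, 36.4 percentage points, from 22.2% to 55.2%.

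CpG islands held most DMRs of some runs. In the *Nbea* and *Mab21l1* run (chr3:55780106-55783665), 8 of 9 DMRs overlapped a CpG island, and the medians were 42.1% and 75.6%. *Nbea* encodes neurobeachin, a neuronal trafficking protein, and *Mab21l1*, a gene of eye development, lies within an intron of it. At the transcribed pseudogene *Ppp4r1l-ps* (chr2:173584581-173585809), all 6 DMRs lay in islands within 1229 bp and went from a median of 16.4% to 55.4%, with a median difference of 34.1 percentage points. At *Kcnh6*, a potassium channel gene, all 6 lay in exonic island sequence within 509 bp (chr11:106020211-106020719) and went from 15.2% to 47.5%. The run over *Tradd*, an adaptor of the TNF receptor, *Fbxl8*, an F-box gene, and *Hsf4*, a heat shock transcription factor gene, had 6 of 8 DMRs in islands (chr8:105258962-105271987). It started higher, at 51.7%, reached 80.9%, and had one of the smallest median differences, 21.9 percentage points.

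*Cd93* encodes a C-type lectin receptor of the endothelial surface, and its run was the least methylated in infant EC. The 6 DMRs (chr2:148434675-148451545) went from a median of 5.90% to 38.0%, and none overlapped an island. The 13 CpGs of 1 exonic DMR rose from 4.21% to 34.5%, the 4 CpGs of another from 3.76% to 42.4%. The DMR farthest from the others, upstream of the gene, differed from them, with 26.8% and 50.9%. Beyond the run, the next listed DMR on the side of *Thbd*, the thrombomodulin gene, was a loss, 31642 bp away.

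Other runs, in genes or between them, followed no common level. At *Plxna4*, a semaphorin receptor gene, 7 DMRs in intron 3 (chr6:32316173-32338668) had infant means from 11.3% to 84.3%, and the gene held 15 gain and 6 loss DMRs in all. At *Kirrel*, which encodes an adhesion protein of the nephrin family, 7 DMRs in intron 1 (chr3:87145239-87172286) had the second smallest median difference, 21.6 percentage points, from 33.2% to 56.9%. Upstream of *Fgfr2*, a fibroblast growth factor receptor gene, 6 intergenic DMRs (chr7:130270148-130292439) had the smallest, 19.5 percentage points, from 51.8% to 79.9%, and both flanking DMRs were losses. In *Gm26885*, a long non-coding RNA gene, 8 DMRs (chr17:29451230-29467704) went from 23.6% to 55.5%. Its nearest loss DMR, at 11072 bp, was the closest of any run. Upstream of *Dleu2*, a long non-coding RNA gene, 8 DMRs (chr14:61684607-61697968) went from 15.5% to 49.7%. In *Arhgap28*, 2 runs with 8 and 6 DMRs were split by a stretch with a single gain DMR, and 1 member went from 2.60% to 18.7%. Between *Eno1* and *Rere*, 1 DMR of the run (chr4:150253367-150269795) stood at 3.90% and 14.2%, the smallest difference of all members, while the first DMR of the run stood at 81.3% and 97.8%.

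The place of the members in genes and the sequence around them were compared with those of the other gain DMRs. The rule asks for close neighbours, which bears on both, and the island share was 54.1%, 32.8% and 24.9% with gaps of at most 5, 10 and 20 kb. DMRs of 1 run also share their place and sequence, so these shares have no test. Of the 244 members, 127 (52.0%) lay in introns, 63 (25.8%) in intergenic regions, 43 (17.6%) in exons, 6 (2.46%) in promoters and 5 at transcript ends. The intergenic share was 8.15% with a gap of at most 5 kb, 31.9% with 20 kb and 12.2% with at least 4 CpGs. After DMRs at most 500 bp apart had been merged, 59 of 85 regions were intronic and 21 intergenic, which left few for exons. Of the other gain DMRs, 44.0% were intronic, 46.2% intergenic and 6.38% exonic. Of the gain DMRs in mixed runs, 40.1% were intronic, 26.8% intergenic and 23.2% exonic. Of the loss DMRs, 75.1% were intronic. Among intronic members, 67 of 127 (52.8%) lay in intron 1, compared with 33.7% of other intronic gain DMRs. A few runs supplied many of the 67, with 18 at *Hspg2*, 10 at *Fli1* and 7 at *Kirrel*. In 14 runs every DMR lay in the body of 1 gene, in 17 every DMR lay in some gene, and 5 runs, such as those at *Fgfr2*, *Gse1* and *Dleu2*, had no DMR in a gene body.

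Members lay closer to start sites than the other gain DMRs as a whole, and gain DMRs in mixed runs lay closer still. The median distance to the nearest TSS was 7021 bp for members, 30804 bp for the other gain DMRs, 4567 bp for gain DMRs in mixed runs and 16533 bp for loss DMRs. Within 5 kb of a TSS were 99 members (40.6%), 17.1% of the other gain DMRs, 53.5% of gain DMRs in mixed runs and 21.2% of loss DMRs. Within 1 kb were 12 members (4.92%), 4.08% of the other gain DMRs and 12.7% of gain DMRs in mixed runs. The share of members within 1 kb depended on the rule, with 10.4% for a gap of at most 5 kb, 10.2% for DMRs of at least 4 CpGs, 9.38% for 1 DMR per run and 2.35% after merging. A start site lay within the span of 12 runs, those at *Hspg2*, *Cd93* and *Hhex* among them.

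**Figure D4:**
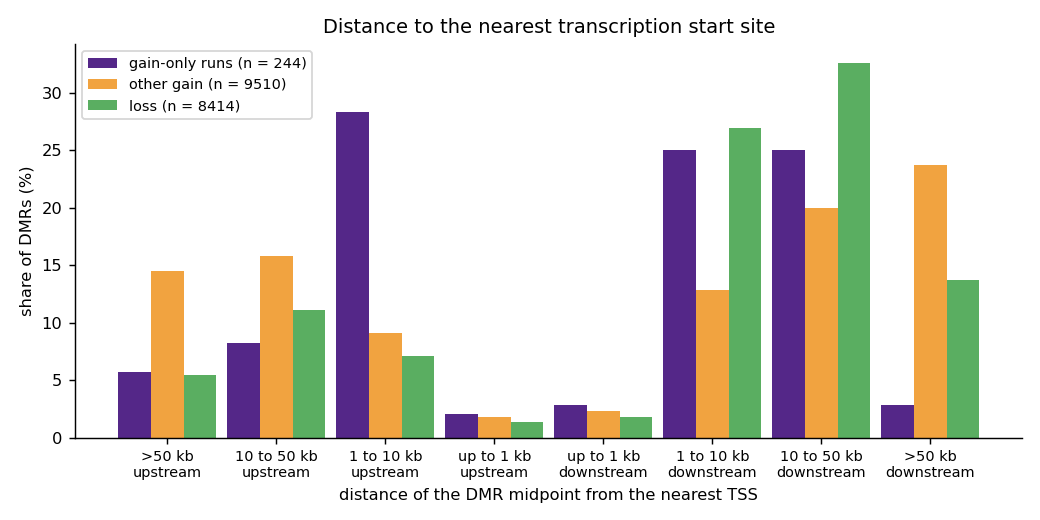
Share of DMRs (vertical axis, %) by the distance of the midpoint from the nearest TSS (horizontal axis), for the members, the other gain DMRs and the loss DMRs of the autosomes. Of the members, 28.3% lie 1 to 10 kb upstream and 25% lie 1 to 10 kb downstream, compared with 9.14% and 12.9% of the other gain DMRs, and the bars within 1 kb are low in all groups.

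CpG islands were computed from the sequence, as 200 bp windows with 50% or more G and C and an observed over expected CpG ratio above 0.6. They overlapped 80 members (32.8%), 14.8% of the other gain DMRs and 11.6% of loss DMRs. By a stricter definition (500 bp, 55% and 0.65) the shares were 16.8%, 3.79% and 0.832%. In gain DMRs of mixed runs the shares were higher than in the members, 49.3% and 35.9%. Of the 43 exonic members 33 overlapped an island, compared with 23 of the 127 intronic and 21 of the 63 intergenic members. Members in islands had medians of 26.4% and 59.6%, and members outside had 32.3% and 63.0%. The other gain DMRs in islands stood at 40.0% and 68.3%. Around the members, 200 bp windows had a median of 2.50 CpGs per 100 bp, compared with 2 for the other gain DMRs and 3 for those in mixed runs, and a mean of 10.2% of bases masked as repeats, compared with 16.1% and 10.6%. The median for members was 4 CpGs per 100 bp with a gap of at most 5 kb, and 2 after merging DMRs at most 500 bp apart. The island share depended on how near neighbours were counted. After DMRs at most 500 bp apart had been merged, 11 runs remained and 10.6% of their 85 regions overlapped an island.

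**Figure D5:**
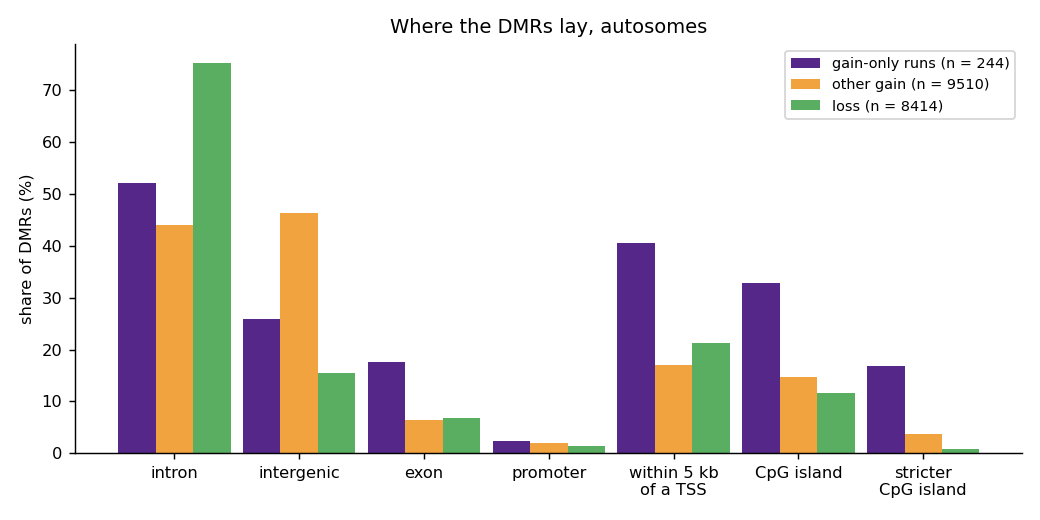
Share of autosomal DMRs (vertical axis, %) in introns, intergenic regions, exons and promoters, within 5 kb of a TSS and in CpG islands of both definitions, for the members, the other gain DMRs and the loss DMRs. Members reach 17.6% in exons and 32.8% in islands, and the intergenic bar is highest for the other gain DMRs, at 46.2%. With DMRs at most 500 bp apart merged, 59 of 85 regions were intronic and 21 intergenic, which left few for exons. The island share was then 10.6%.

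Short sequence motifs were counted in 200 bp windows on both strands. Windows of neighbouring members can overlap, so 1 motif can be counted for several members, and the shares have no test. The E-box cagctg occurred in 45 members (18.4%) of 22 runs, in 13.1% of the other gain DMRs and in 11.3% of loss DMRs. The GC box gggcgg occurred in 24 members (9.84%) of 14 runs, in 5.87% of the other gain DMRs and in 5.50% of loss DMRs. The E-box cacgtg was found in 2 members (0.820%) of 2 runs, in 3.89% of the other gain DMRs and in 4.77% of loss DMRs. The AP-1 motif tgactca was in 4.92% of members and in 3.66% of the other gain DMRs. The GATA motif agataag was in 3.69% and 2.57%, and for the SOX motif aacaatg the shares were 2.87% and 3.77%. The FOX motif tgtttac was in 3.69% and 3.02%, whereas the RUNX motif tgtggtt was in 2.46% and 4.31%. The TEAD motif ggaatg was in 10.2% and 12.2%. Rarer were the PBX-HOX motif tgattgac, with 0.820% and 0.505%, and the TCF-LEF motif ctttgatc, with 1.64% and 1.11%. The ETS motif accggaag was in 1 member (0.410%) and in 0.389% of the other gain DMRs. The NFI palindrome was in 0 members and in 0.0526% of the other gain DMRs. Letters in a window are not evidence of binding.

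Gene lists were read by counts alone, beside the counts over all 24861 annotated genes, of which 45 were nearest to a member and 5273 to other gain DMRs. Of 235 developmental transcription factor genes, 4 were nearest to a member (*Meis2*, *Nr2f2*, *Prdm8* and *Prdm11*, with 16 DMRs), and 102 were nearest to other gain DMRs. *Otx1* and *Hhex* are not on this list. Of 32 semaphorin and receptor genes, *Nrp2* was nearest to 9 members, and *Plxna4* held 7 in its body but was not the nearest gene. *Hspg2* was the only one of 70 matrix genes, *Fgfr2* the only one of 27 angiogenic signalling genes and *Itga6* the only one of 52 junction and adhesion genes next to a member. *Cdkn2a* and *Cdkn2b* were the 2 of 28 cell cycle genes. None of the 39 HOX, 30 NOTCH, 40 TGFβ and BMP, 54 WNT, 40 axon guidance and 30 imprinted genes, and none of the 12 genes of DNA methylation enzymes, was nearest to a member. *Kcnq1*, on the imprinted list, nonetheless lay within 50 kb of the run at *Cd81* (chr7:143049133-143064576). None of the 15 endothelial marker genes, a list without *Cd93* and *Fli1*, was nearest to a member. The same held for the markers of pericytes, fibroblasts, epithelium, leukocytes, lymphatic and erythroid cells. With so few genes nearest to any member, lists of this size can be empty without differing from the rest of the genes. Other gain DMRs were nearest to 10 HOX, 10 NOTCH and 9 endothelial marker genes.

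The nearest listed DMR on each side of a run gave 64 flanking positions, at a median distance of 73457 bp, with the 2 *Arhgap28* runs sharing the DMR between them. Of these positions, 47 (73.4%) held gains, a share no higher than the 76.3% around gain DMRs that stood alone. Around mixed runs 36 of 72 positions held gains, and around loss-only runs the share was 33.8%. Both flanking DMRs were gains for 20 runs and losses for 5. The nearest loss DMR lay at a median of 148593.5 bp from a run and at most 2558783 bp from it, at the *Skida1* run.

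The rule has 2 limits, the size of a run and the gap. The runs of 6 with the widest inner gaps, 8806 bp at *Cd93*, 8606 bp at *Arhgap28* and 8213 bp at *Arhgef17*, had median differences of 30.8, 29.2 and 29.9 percentage points. Just outside were 33 gain-only runs of 5. Those with the largest median differences lay at *Cfap161* (chr7:83801253-83813750, 37.8 percentage points, from 19.1% to 54.2%), *Uaca* (chr9:60836358-60850304, 33.2, from 17.0% to 49.4%) and *2900052L18Rik* (chr11:120218626-120224281, 32.7, from 28.9% to 71.5%). These 3 median differences lay within the range of the runs that were kept.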

How the data were processed

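T-WGBS libraries of 3 infant and 3 young adult samples were analysed through the authors' list of DMRs. Per the labels and the methods of the study, 30 ng of DNA per sample was tagmented, reads were aligned to mm10 with BWA 0.6.1, duplicates were removed, bases of quality below 20 and 9 bp at tagmented ends were left out, and DMRs were called with bsseq in R 3.2.2 without smoothing. CpGs needed a coverage of at least 8-fold in 2 of 3 samples of a group. A DMR had at least 3 consecutive CpGs, each at 0.05 by the authors' test per CpG, and group means at least 10% apart. The deposited values are group means of methylation, each a fraction, pooled over its samples by the authors, and were multiplied to percent here. The depth behind a DMR is not known.

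The first and last position of all 18333 DMRs was a CpG of GRCm38, and printed coordinates are 1-based and include both CpGs. DMRs were placed by midpoint on 44429 curated RefSeq transcripts, in the order promoter (1 kb upstream to 100 bp downstream), transcript end, exon, intron and intergenic. Python 3.11.15, numpy 2.4.6, pandas 2.3.3 and pysam 0.24.0 were used. The selection of runs was tested on simulated data. No test was made, because the rule used the group means and DMRs of 1 run are not independent.

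The members and the lists of genes and motifs were chosen with earlier results of these data known. Named here are the runs with the most DMRs, the largest and smallest median differences, the lowest infant medians and the most island DMRs, single DMRs with the largest differences, lowest infant means and most CpGs, DMRs at the limits of the rule, and genes of the lists. The runs at *Hhex*, *Gse1* and *Cd81* and the short run at *Fli1* fall outside it and were picked once their values were known. Alternatives were other gaps, run sizes, differences, CpG numbers, merging, islands, windows and 1 DMR per run. RNA-seq data and values per sample were not analysed here.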

Additional observations from a re-analysis of the deposited data

How the results depend on the processing

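No paired analysis was possible because the list holds group means only, and no replicate was left out for the same reason. Of 101 alternative values, 56 stayed close to the value reported (for shares and medians, within its 95% interval, which takes members as independent) and 45 moved. The median young adult level and, with windows of 200 bp, the repeat share moved under no alternative run. Including chromosome X added no run, so its values equalled those reported and count among the 56 without being a check.

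The number of DMRs and runs followed the limits of the rule: 135 in 17 with a gap of at most 5 kb, 457 in 59 with 20 kb, 409 in 65 with runs of 5 or more, 126 in 13 with 8 or more, 147 in 17 with differences of at least 20 percentage points, 49 in 6 with at least 4 CpGs and 85 in 11 with rows at most 500 bp apart merged. Of the 244 members, 105 remained with 5 kb, 218 with 20 kb, 127 with the larger difference and 36 with 4 CpGs. With 5 kb, the median difference was 31.1 percentage points, the infant median 26.2%, the intergenic share 8.15%, the share within 1 kb of a TSS 10.4%, the island share 54.1% and the CpG density 4 per 100 bp. With 20 kb, the median difference was 27.2, the intergenic share 31.9% and the island share 24.9%. With differences of at least 20 percentage points, the median difference was 30.6, the infant median 26.8%, the intergenic share 18.4% and the island share 40.1%. With 4 CpGs, these were 33.2, 24.5%, 12.2% and 51.0%, the share within 1 kb of a TSS was 10.2% and the CpG density 3. Merging gave a median difference of 27.0, an intronic share of 69.4%, a share within 1 kb of a TSS of 2.35% and an island share of 10.6%. With 1 DMR per run, the median difference was 29.7, the share within 1 kb of a TSS 9.38%, the island share 43.8% and the CpG density 2.75. A window of 1000 bp gave 1.80 CpGs per 100 bp and 14.0% repeats, 5 kb around the TSS 40.6%, and stricter islands 16.8%.

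The island share thus went from 10.6% with pieces merged to 54.1% with a gap of 5 kb. Differences come from regions selected on the same samples. No error of a group mean is known, and the part of coverage was not tested.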
